A study of Homo sapiens with 2 samples.

Results

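NRF2 is a transcription factor that KEAP1 holds at a low level until oxidants or reactive compounds release it, and it then drives genes for heme breakdown, iron storage, thioredoxin repair, NADPH supply and the clearance of quinones and epoxides. BACH1 is a repressor that competes for the same promoter elements, and heme removes it from them. The 9 genes described here are known targets of this system: HMOX1, NQO1, TXNRD1, SRXN1, ME1, FTL, FTH1, OSGIN1 and EPHX1. They were taken by the gene name in the array files, with all 17 probes that carry one of these names among 41000 probes and 30238 gene names. A total of 6 of the genes had 1 probe, ME1 and FTL had 3 each, and FTH1 had 5.

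The A2780 cells come from a human ovarian carcinoma and grow as an established line. A2780CBN was selected in carboplatin, a platinum drug that crosslinks DNA, up to 22.2 µM, and A2780CBNDXL in carboplatin together with docetaxel, a taxane that stabilizes microtubules. The labels and the methods differ on the dose of the combination, which is therefore not given. Doses were raised in steps, and each line was set against a control kept in culture without drug, named A2780CC for both lines although the methods describe a separate co-cultured control for each. For each line the RNA of 3 isolations was combined before labelling and hybridized with control RNA to 4 arrays, of which arrays 1 and 2 shared slide 1 and arrays 3 and 4 slide 2, with forward labelling on arrays 1 and 3 and reverse labelling on arrays 2 and 4. The arrays of a line are therefore repeats of 1 sample, n = 1 per line, and every SD below covers labelling and hybridization error only. No test across cultures was possible, and less RNA per cell cannot be told apart from fewer cells that express a gene.

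Values are log2 ratios of the resistant line over its control, as the mean of the forward and the reverse average. A gene was counted as changed when the mean was at least 1 in size, that is 2-fold, its sign held on all 4 arrays, and 1 channel exceeded the background clearly (the scanner's mark for well above background) on each of them. By this rule 12.6% of 17951 genes tested changed in A2780CBN and 16.9% of 17116 in A2780CBNDXL. Per channel, 59.8% to 67.5% of spots had this mark, and no spot was saturated. The dye entries of the reverse labelled arrays contradict their names, and they were read by the name. Within a line, forward then correlated with reverse log2 ratios at 0.58 to 0.74. The channels read as controls correlated between the lines at 0.954 to 0.983 over 20530 probes, the channels read as resistant lines at 0.919 to 0.948, and a control with the other resistant line at 0.914 to 0.964. Of 8 epithelial markers PAX8, KRT8 and KRT18 were well above background in every channel, KRT19 and EPCAM on some arrays only in at least 1 channel, and WT1, CDH1 and MUC16 on none. EPCAM rose in both lines, at 2.07 ± 0.30 in A2780CBN and 1.67 ± 0.24 in A2780CBNDXL, and KRT18 rose in A2780CBN at 1.05 ± 0.16. The leukocyte marker PTPRC and the endothelial marker PECAM1 were likewise too dim throughout, whereas the other 2 leukocyte markers, CD14 and CD68, were above background in every channel. The other endothelial marker, VWF, was well above background on some arrays only. The summed signal of 3 fibroblast markers, COL1A1, COL1A2 and DCN, was 691 in A2780CBN against 1788 in its control, and 7793 in A2780CBNDXL against 7478 in its control. These sums hide opposite moves. DCN rose, at 2.21 and 3.62 in the lines in this order, COL1A2 fell, at -5.67 and -2.81, and COL1A1 was at 0.99 and rose at 2.04. The part of these markers in the results was not tested.

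HMOX1 carried the only member change in either line. It was 8.78-fold lower in A2780CBNDXL than in its control. In A2780CBN all 9 members were tested and 0 changed, where 12.6% of all genes tested did. In A2780CBNDXL 7 were tested and 1 fell, where 16.9% of all genes tested changed. Over all 9 genes the median log2 ratio was 0.47 in A2780CBN, where the median of all genes tested was -0.06. In A2780CBNDXL it was -0.35, where that of all genes tested was 0.04. A total of 6 members had a mean above 0 in A2780CBN and 1 did in A2780CBNDXL. The share of all genes tested with a mean above 0 was not counted. Among the 6 was TXNRD1, whose mean in A2780CBN was 0.52 on forward and -0.16 on reverse labelled arrays. The 1 in A2780CBNDXL was EPHX1, at -0.13 on forward and 0.71 on reverse labelled arrays. For both, the sign depended on the labelling direction.

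**Figure D1:**
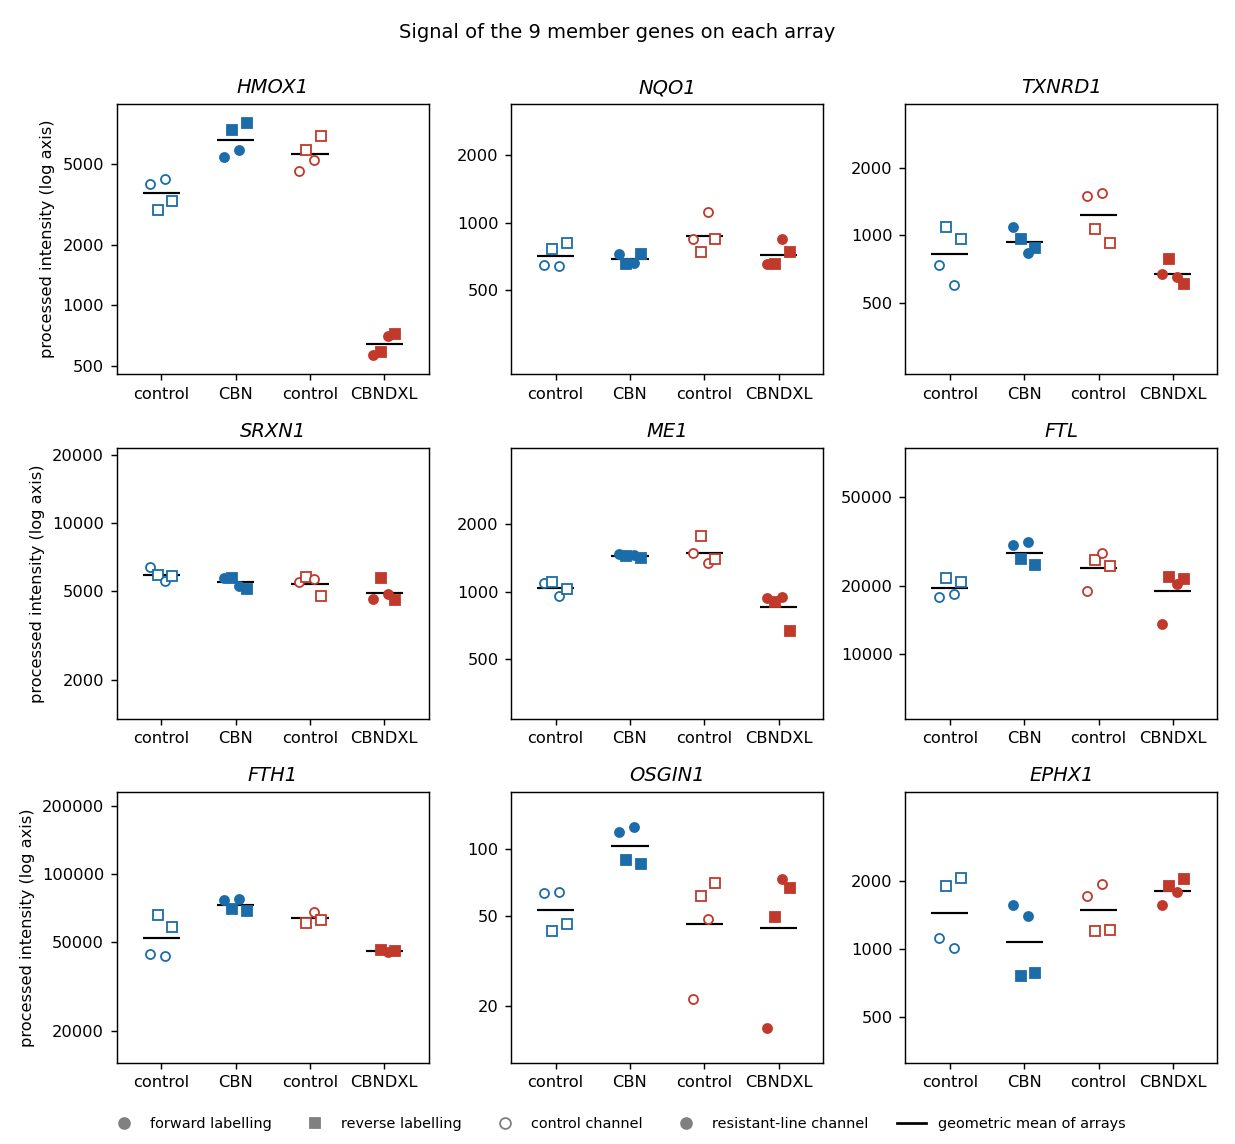
Processed intensity of each member gene on each array, on a logarithmic axis that differs between panels, for the probe with the highest mean signal. Open symbols are the control channel and filled symbols the resistant-line channel, circles mark forward and squares reverse labelling, and bars are geometric means of the arrays. HMOX1 in A2780CBNDXL lies between 566 and 719, below all other channels of that gene.

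HMOX1 encodes heme oxygenase-1, which opens the heme ring to give biliverdin, carbon monoxide and free iron. Its probe, at chr22:34120122-34120181 on the plus strand of NCBI36, was printed in 10 spots per array, of which at most 3 were left out as outliers. The A2780CBN channel read 5448, 7420, 5917 and 7995 on arrays 1 to 4, and the control channel of the same arrays 4015, 2974, 4252 and 3279. The log2 ratios were 0.44, 1.32, 0.48 and 1.29, with a mean of 0.88 ± 0.49 (SD, 4 arrays). All 4 were above 0, but the forward arrays lay below the 2-fold limit and the reverse arrays above it, and the mean did not reach it.

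On the A2780CBNDXL arrays the resistant line read 566, 585, 700 and 719 for HMOX1, and the control 4641, 5869, 5243 and 6939. Both channels were well above background on every array and did not overlap. The log2 ratios were -3.04, -3.33, -2.90 and -3.27, with a mean of -3.13 ± 0.20 (SD, 4 arrays). Of the 17116 genes tested in this line, 1.81% had a ratio as low or lower, and HMOX1 ranked at 310 from the lowest. The change was counted under every alternative tried, including each labelling direction and each slide alone. Its smallest size, -2.62, came from setting the line against the control channel of the A2780CBN arrays.

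The ferritins FTH1 and FTL form the shell in which cells store iron, FTH1 as the heavy, iron-oxidizing subunit and FTL as the light one. Neither changed by the rule in either line. For FTL the probe with the highest signal, at chr19:54161668-54161727, read 30645, 26524, 31481 and 24945 in A2780CBN against 17965, 21685, 18438 and 20976 in its control. The log2 ratios were 0.77, 0.29, 0.77 and 0.25, with a mean of 0.52 ± 0.29 (SD, 4 arrays). Every A2780CBN value was above every control value.

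In A2780CBNDXL the same FTL probe read 13523, 21994, 20413 and 21512 against 18980, 26082, 28049 and 24509 in the control. The log2 ratios were -0.49, -0.25, -0.46 and -0.19, with a mean of -0.35 ± 0.15 (SD, 4 arrays). Signals of the channels overlapped across arrays, while the ratio was below 0 on each. Both further FTL probes had means of 0.53 and 0.56 in A2780CBN. The probe at 0.53 had ratios of 1.08 and 1.06 under forward but 0.006 and -0.011 under reverse labelling. In A2780CBNDXL both probes were at -0.06 and -0.13, with both signs among the arrays.

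The FTH1 probe with the highest signal, at chr11:61488852-61488911 on the minus strand, read 76429, 70089, 77664 and 68562 in A2780CBN against 43930, 65886, 43159 and 58200 in the control. Its mean log2 ratio was 0.49 ± 0.39 (SD, 4 arrays), with 0.80 and 0.85 under forward and 0.09 and 0.24 under reverse labelling. In A2780CBNDXL the spot of array 1 was marked as an outlier, so the gene was not tested there. On arrays 2 to 4 the line read 45677, 45035 and 45525 and the control 60576, 67740 and 62131, without overlap. The ratios were -0.41, -0.59 and -0.45, with a mean of -0.51 ± 0.10 (SD, 3 arrays).

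The 5 FTH1 probes had means of 0.36 to 0.53 in A2780CBN, all above 0. In A2780CBNDXL 4 of them lay between -0.63 and -0.18, and the probe nearest the transcript start, at chr11:61491542-61491601, at 0.26 ± 0.11 (SD, 4 arrays). The probe at -0.18 had ratios of both signs there, from -0.44 to 0.12, and its coordinates span only 31 bases. The probes of this gene therefore disagree in sign in A2780CBNDXL. Ferritin genes have many near-identical copies in the genome, and 2 of the FTH1 probes show this. By their coordinates they overlap by 51 bases, yet they differ at 4 positions of that overlap, in capitals below. Values of FTH1 and FTL are uncertain to the extent that such copies bind the same probe. The sequences are those of the array files, 5′ to 3′.
FTH1 A_32_P111565: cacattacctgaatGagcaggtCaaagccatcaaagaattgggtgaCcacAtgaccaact
FTH1 A_24_P58337: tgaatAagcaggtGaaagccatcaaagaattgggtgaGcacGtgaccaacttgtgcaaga
The overlapping pair gave similar ratios, 0.46 and 0.49 in A2780CBN and -0.45 and -0.51 in A2780CBNDXL.

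TXNRD1 encodes the NADPH-dependent reductase that keeps thioredoxin active, and SRXN1 encodes sulfiredoxin, which restores over-oxidized peroxiredoxins. TXNRD1, at chr12:103266763-103266822, read 1092, 965, 833 and 876 in A2780CBN against 735, 1092, 598 and 964 in the control. The ratio was above 0 on the forward arrays, at 0.57 and 0.48, and below 0 on the reverse ones, at -0.18 and -0.14. In A2780CBNDXL the line read 671, 782, 655 and 606 and the control 1495, 1063, 1544 and 922.

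The TXNRD1 ratios in A2780CBNDXL were -1.16, -0.44, -1.24 and -0.60, with a mean of -0.86 ± 0.39 (SD, 4 arrays), which did not reach the 2-fold limit. The line lay below the control on each array, and its 4 values were lower than every control value. On the forward arrays alone the gene would count as changed, at -1.20. SRXN1, at chr20:575563-575622, had the smallest spread of the members in A2780CBN, at -0.11 ± 0.07 (SD, 4 arrays). Its mean was -0.13 ± 0.12 in A2780CBNDXL. Its channels overlapped in both lines, with 5106 to 5715 in A2780CBN and 4560 to 5685 in A2780CBNDXL.

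NQO1 encodes the reductase that turns quinones into hydroquinones with NADH or NADPH and is the usual marker gene of NRF2 activity. Its probe, at chr16:68301775-68301834, read 724, 656, 660 and 721 in A2780CBN against 649, 760, 641 and 807 in the control, with a mean log2 ratio of -0.04 ± 0.17 (SD, 4 arrays). In A2780CBNDXL the line read 652, 656, 843 and 743 and the control 844, 744, 1110 and 844. The ratios of -0.37, -0.18, -0.40 and -0.18 were all below 0, with a mean of -0.28 ± 0.12 (SD, 4 arrays), 1.22-fold. Signals of line and control overlapped across the arrays of each line.

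ME1 encodes cytosolic malic enzyme, which makes NADPH from malate. Its brightest probe, at chr6:83978441-83978500 on the minus strand, read 1468, 1438, 1462 and 1409 in A2780CBN against 1092, 1100, 953 and 1030 in the control. The channels did not overlap, and the mean ratio was 0.47 ± 0.10 (SD, 4 arrays). In A2780CBNDXL the line read 939, 899, 948 and 671 and the control 1478, 1768, 1344 and 1397. The channels again did not overlap, in the opposite order, and the ratios of -0.65, -0.97, -0.50 and -1.06 gave a mean of -0.80 ± 0.26 (SD, 4 arrays).

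All 3 ME1 probes had the same signs on every array, above 0 in A2780CBN and below 0 in A2780CBNDXL. The further probes had means of 0.33 and 0.67 in A2780CBN and of -1.10 and -0.73 in A2780CBNDXL. The probe at -1.10 ± 0.19, at chr6:83977515-83977574, passed the 2-fold rule by itself but does not represent the gene. Its line channel on array 1, at 61, was not well above background. With normexp background correction and loess its ratios in A2780CBNDXL lay between -0.69 and -0.21. The probe at -0.73 was dim, with signals of 30 to 104 over both lines. On the reverse arrays alone the brightest probe was at -1.02 and would also count as changed.

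**Figure D2:**
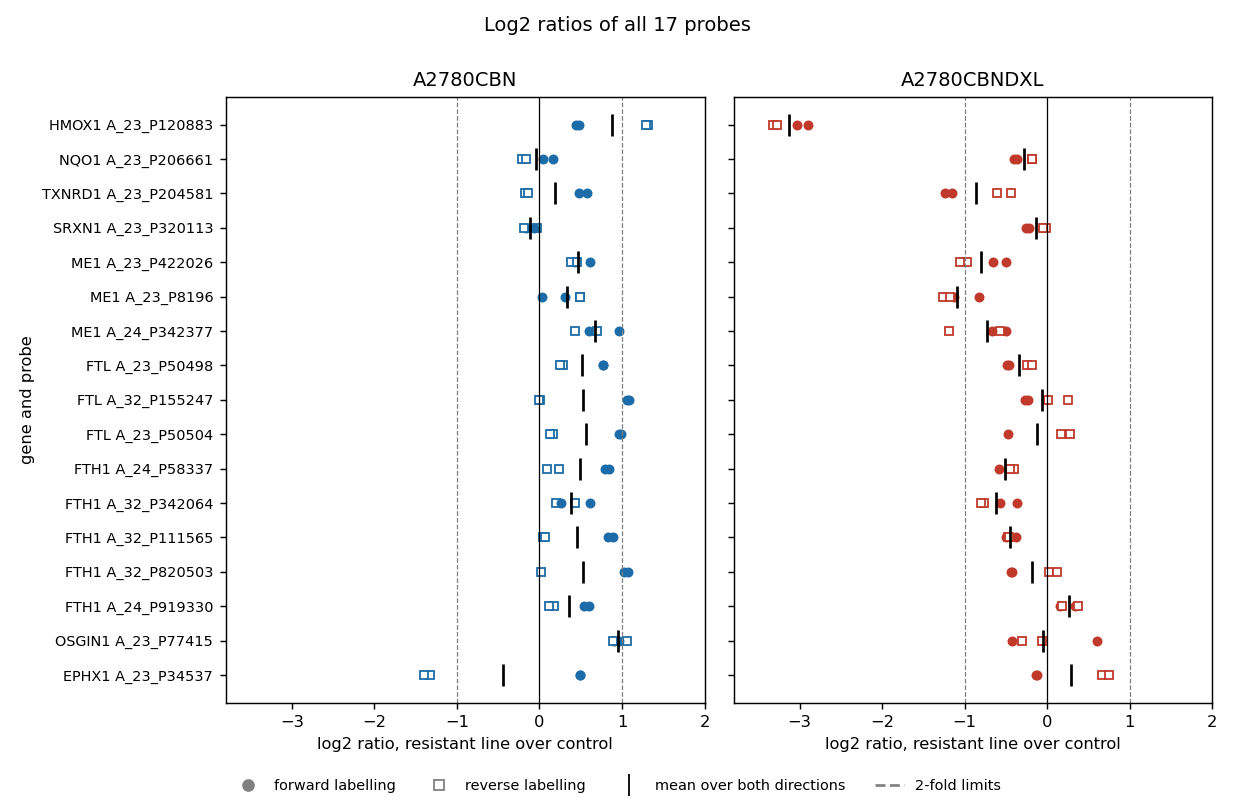
Log2 ratio of the resistant line over its control on each array for all 17 probes, with A2780CBN on the left and A2780CBNDXL on the right. Circles are forward and open squares reverse labelled arrays, black ticks the means, dashed lines the 2-fold limits. HMOX1 alone lies far beyond a limit, on the lower side in A2780CBNDXL, and the 3 ME1 probes lie on opposite sides of 0 in the 2 lines.

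OSGIN1 encodes an oxidative stress-induced growth inhibitor, and EPHX1 encodes microsomal epoxide hydrolase, which hydrolyses reactive epoxides. OSGIN1, at chr16:82556650-82556709, was dim. It read 118, 89, 125 and 85 in A2780CBN against 63, 43, 64 and 46 in the control. The channels did not overlap, and the ratios of 0.90, 1.06, 0.97 and 0.89 gave a mean of 0.95 ± 0.08 (SD, 4 arrays), just inside the 2-fold limit. With normexp background correction and loess the mean was 0.22, while with background-subtracted signals, and with the control channel of the A2780CBNDXL arrays, the gene counted as changed.

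In A2780CBNDXL OSGIN1 was not well above background in either channel on array 1 and was not tested. The line read 16, 50, 74 and 67 and the control 21, 61, 48 and 70, with ratios of both signs and a mean of -0.05 ± 0.46 (SD, 4 arrays). EPHX1, at chr1:224099506-224099565, read 1570, 755, 1409 and 784 in A2780CBN against 1115, 1898, 1006 and 2064 in the control. Its ratios were 0.49 on both forward arrays and -1.33 and -1.40 on the reverse ones, so that the sign followed the labelling direction. In A2780CBNDXL they were -0.13 and -0.12 on the forward and 0.67 and 0.75 on the reverse arrays. No direction can be given for EPHX1 in either line.

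Forward and reverse arrays differed for several members. The forward mean minus the reverse mean had a median size of 0.50 over the 9 genes in A2780CBN, against 0.35 over all genes tested. In A2780CBNDXL the median sizes were 0.27 and 0.32. For EPHX1 the gap was 1.85 in A2780CBN, and 0.618% of genes tested had a gap of that size or more. It was -0.83 in A2780CBNDXL, where 8.07% did. The gap had opposite signs in the 2 lines for 7 of the 9 members and for 59.2% of all genes tested.

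**Figure D3:**
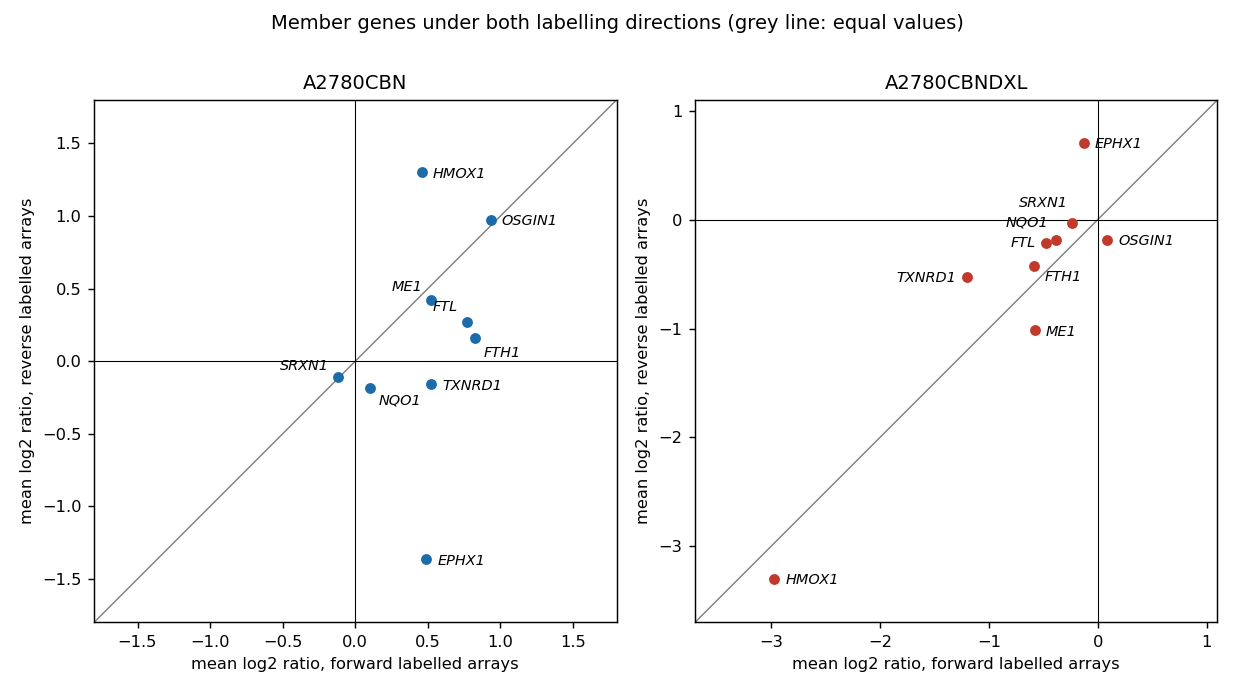
Mean log2 ratio of each member on the 2 reverse labelled arrays against that on the 2 forward labelled arrays, for A2780CBN on the left and A2780CBNDXL on the right. Each point is a gene, the panels have axes of their own, and on the grey line both directions would give the same value. HMOX1 in A2780CBNDXL lies far from 0 on both axes, whereas EPHX1 lies on opposite sides of 0 in both lines.

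The lines were set against each other as the difference of their log2 ratios, A2780CBNDXL minus A2780CBN, over 4 pairs of arrays of the same slide and labelling direction. A gene counted as different when the mean difference was at least 1 in size with the same sign in all 4 pairs. This held for 4 of the 8 members tested, HMOX1, ME1, TXNRD1 and OSGIN1, all with a lower ratio in A2780CBNDXL. Over all 17627 genes tested it held for 18.8%. The median difference over the 9 members was -1.003, against 0.10 over all genes tested.

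HMOX1 differed by -4.02 ± 0.68 (SD, 4 pairs), between -4.65 and -3.38, and 1.45% of genes tested had a difference as low or lower. ME1 differed by -1.27 ± 0.20, between -1.51 and -1.08 for its brightest probe. TXNRD1 differed by -1.04 ± 0.79, between -1.73 and -0.27, and did not pass under normexp with loess, on slide 1 alone, on reverse arrays alone or without the array 4 pair. OSGIN1 differed by -1.003 ± 0.47, close to the limit, and did not pass under normexp with loess, with background-subtracted signals, with both channels required above background, on slide 2 or forward arrays alone, or without the array 1 or the array 2 pair. FTL differed by -0.87 ± 0.44 and did not pass. FTH1 differed by -1.01 over the 3 pairs it had and was not tested because of the outlying spot.

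The log2 ratios of the 2 lines did not overlap between lines for 5 of the 8 members tested, HMOX1, TXNRD1, ME1, FTL and OSGIN1, and for 45.4% of all genes tested. They had opposite signs on all arrays, above 0 in A2780CBN and below 0 in A2780CBNDXL, for 3 of the 8, HMOX1, ME1 and FTL. Opposite signs in either order were found for 14.1% of all genes tested. For FTL the lack of overlap and the opposite signs held for the brightest probe alone. Its further probes overlapped between the lines. NQO1 differed by -0.24 ± 0.29 and SRXN1 by -0.02 ± 0.13, both with pairs of either sign.

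Since both ratios rest on controls, the channels were also compared directly after scaling between arrays. For the control channels 0 of the 8 members tested passed the rule, against 4.68% of 16871 genes tested. The HMOX1 control signal was nevertheless higher on the A2780CBNDXL arrays in each pair, by 0.51 ± 0.24 on the log2 scale. For ME1 it was higher by 0.40 ± 0.17, also in each pair. For TXNRD1 the control signal differed by 0.46 ± 0.89, between -0.31 and 1.28, with pairs of either sign. Among the resistant-line channels 16.5% of 17083 genes tested passed, and 2 of the 8 members tested did, a comparison added after the values were seen. HMOX1 was lower in A2780CBNDXL than in A2780CBN with a mean difference of the log2 signal of -3.50 ± 0.47, and OSGIN1 passed with a mean of -1.33 ± 1.15, where array 1 of A2780CBNDXL was not above background. ME1 was at -0.87 ± 0.36, FTL at -0.69 ± 0.28 and TXNRD1 at -0.58 ± 0.14, each below 0 in all 4 pairs. Set against the control of the other line's arrays, the mean HMOX1 ratio in A2780CBN was 0.37 in place of 0.88, and that of ME1 0.08 in place of 0.47. For TXNRD1 the mean ratio was then -0.28 in place of 0.18 in A2780CBN, and -0.40 in place of -0.86 in A2780CBNDXL.

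Promoter sequences from RefSeq, assembly GRCh38.p14, were at hand for 7 of the 9 members, not for HMOX1 and FTH1, with 10 start sites in all. They run from 250 bases before to 50 bases after the start. NRF2 with a small MAF partner binds the antioxidant response element, whose core TGACNNNGC was searched on both strands. This pattern includes TGACTCAGC, which also holds the AP-1 motif TGACTCA. It was found in 4 of the 10 promoters, of TXNRD1, ME1 and EPHX1, and in 13.3% of 35116 promoters. The ME1 promoter and 1 TXNRD1 promoter hold a second match nearer the start. The stretch around the match farthest before each start is printed in the direction of the gene, with that match in capitals.
TXNRD1, chr12:104215654-104215714, plus strand, 99 bases before the start: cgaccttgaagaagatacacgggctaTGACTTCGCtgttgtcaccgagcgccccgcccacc
TXNRD1, another start, chr12:104286904-104286964, plus strand, 102 bases before it, match on the opposite strand: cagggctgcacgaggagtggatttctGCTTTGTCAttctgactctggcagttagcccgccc
ME1, chr6:83431154-83431214, minus strand, 137 bases before the start: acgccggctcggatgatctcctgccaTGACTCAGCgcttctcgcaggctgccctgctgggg
EPHX1, chr1:225825250-225825310, plus strand, 78 bases before the start: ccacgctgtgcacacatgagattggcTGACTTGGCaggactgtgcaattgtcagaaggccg
Of the members whose ratio to the control counted as lower in A2780CBNDXL than in A2780CBN, TXNRD1 and ME1 hold a match and OSGIN1 has none. EPHX1, without a settled direction, holds one, and FTL, NQO1 and SRXN1 have none in these windows.

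The genes with the pattern most like HMOX1 over the 8 arrays, by root mean square difference of log2 ratios among 16131 genes above background throughout, were RUNX2 and KIAA1211. RUNX2, a transcription factor of bone formation, was at 0.73 ± 0.21 in A2780CBN and -3.28 ± 0.16 in A2780CBNDXL, a root mean square difference of 0.233 from HMOX1. KIAA1211 was at 0.75 ± 0.29 and -3.45 ± 0.33, a difference of 0.296.

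Of 51 other genes listed for the pathway 50 were on the array. The list was chosen with earlier results of these data known. Its shares of changed genes, here and by group below, therefore do not test an excess over all genes. In A2780CBN 40 of the listed genes were tested and 6 changed, 3 in each direction, 15.0% against 12.6% of all genes tested. In A2780CBNDXL 38 were tested and 12 changed, 5 higher and 7 lower, 31.6% against 16.9%. Median log2 ratios of the tested list were -0.10 and -0.32. Of the regulators 0 of 8 tested changed in A2780CBN and 1 of 7 in A2780CBNDXL. NFE2L2, which encodes NRF2, was at 0.06 ± 0.15 in A2780CBN and 0.10 ± 0.40 in A2780CBNDXL, where it was measured on 3 arrays and not tested. KEAP1 was at 0.09 ± 0.15 and 0.73 ± 0.47, and BACH1 at -0.09 ± 0.14 and -0.52 ± 0.48. The small MAF partner MAFF fell in A2780CBNDXL, at -1.78 ± 0.25.

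In the glutathione and thioredoxin group 2 of 9 genes tested changed in A2780CBN, 22.2% against 12.6% of all genes tested. In A2780CBNDXL 3 of 5 did, 60% against 16.9%. GCLC, the catalytic subunit of glutamate-cysteine ligase, rose in A2780CBN at 3.09 ± 0.42 and fell in A2780CBNDXL at -1.22 ± 0.48. The paper reports GCLC as raised in A2780CBN by microarray and by quantitative PCR. For A2780CBNDXL it lists no significant difference by either method. The modifier subunit of the ligase, GCLM, fell in A2780CBNDXL at -1.83 ± 0.38. SLC7A11, the cystine carrier, was there at least 11.5-fold lower than the control, with the signal of the line itself too dim to be marked on any of its 4 arrays. GLRX, glutaredoxin, rose in A2780CBN at 1.43 ± 0.06.

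In the heme and iron group 2 of 10 genes tested changed in A2780CBN, 20% against 12.6% of all genes tested. In A2780CBNDXL 3 of 11 did, 27.3% against 16.9%. BLVRA, which reduces the biliverdin that heme oxygenase makes, rose at 1.60 ± 0.08, and the heme carrier SLC48A1 fell at -1.92 ± 0.04. TFRC, the transferrin receptor, fell in both lines, at -1.03 ± 0.04 in A2780CBN and -1.34 ± 0.17 in A2780CBNDXL. NCOA4, the receptor that leads ferritin to breakdown, rose in A2780CBN at 1.22 ± 0.21.

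Among the conjugation, reduction and export genes 2 of 9 tested changed in A2780CBN, both downward, 22.2% against 12.6% of all genes tested. In A2780CBNDXL 5 of 10 did, 4 of them upward, 50% against 16.9%. Of all 2893 changes in A2780CBNDXL 1318 were upward. The 4 were AKR1C3 at 2.87 ± 0.24, AKR1C1 at 2.51 ± 0.15, EPHX2 at 2.19 ± 0.04 and CBR1 at 1.74 ± 0.28, aldo-keto reductases, a soluble epoxide hydrolase and a carbonyl reductase. NQO2 was the downward one, at -1.21 ± 0.11. In A2780CBN CBR3 was at least 13.0-fold and AKR1C3 at least 2.50-fold lower than the control. AKR1C family members are close in sequence, so their probes may share transcripts.

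Several of these calls ended under an alternative. Under normexp with loess MAFF, GCLC, SLC7A11 and AKR1C1 did not pass in A2780CBNDXL, nor CBR3 and AKR1C3 in A2780CBN. With the controls of the 2 lines exchanged MAFF, GCLC and NQO2 did not pass in A2780CBNDXL, nor GLRX and TFRC in A2780CBN. GCLC did not pass on forward arrays alone in A2780CBNDXL, nor TFRC on reverse arrays alone in A2780CBN. With background-subtracted signals SLC7A11 did not pass in A2780CBNDXL, nor CBR3 in A2780CBN. With both channels required above background SLC7A11 and AKR1C1 did not pass in A2780CBNDXL, nor CBR3 and AKR1C3 in A2780CBN. At a 3-fold limit GCLC, TFRC and NQO2 did not pass in A2780CBNDXL, nor GLRX, TFRC and NCOA4 in A2780CBN.

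**Figure D4:**
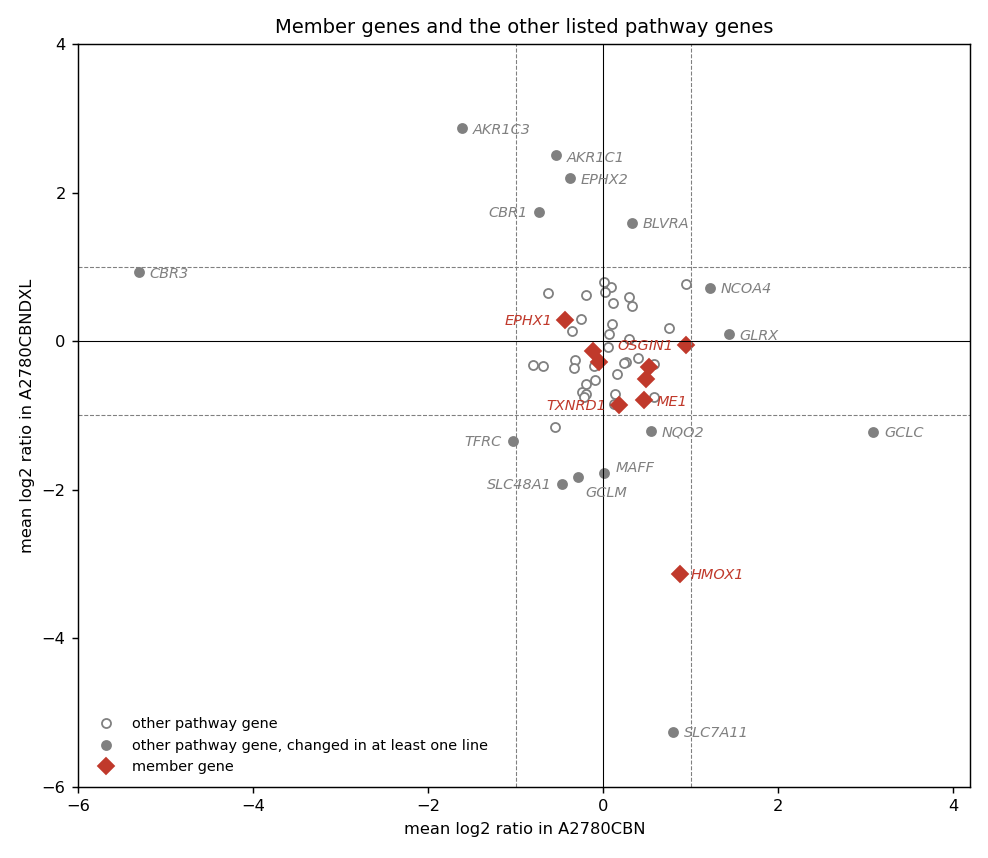
Mean log2 ratio in A2780CBNDXL against that in A2780CBN for the 9 members, as diamonds, and the other 50 pathway genes, as circles that are filled where the gene changed in at least one line. Dashed lines mark 2-fold. Members lie within the limits in both lines except HMOX1, and the points of SLC7A11 in A2780CBNDXL and of CBR3 and AKR1C3 in A2780CBN rest on a line channel too dim to be marked as above background.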

How the data were processed

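The authors hybridized RNA of each resistant line and its control to Agilent whole genome arrays and deposited the Feature Extraction output, made with 10.7.1.1 on slide 1 and with 10.7.3.1 on the other slide, with probe coordinates on NCBI36. The deposited processed intensity of each channel had been background-subtracted, corrected for trends and normalized for dye within the array, with a surrogate near the background. Deposited raw and background intensities served the alternatives only.

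Spots marked as outliers were left out, spots of a probe were averaged as log2, and a probe was well above background where a share of 0.5 or more of its spots was. The brightest probe stands for the gene. Reverse arrays were turned over as their names state. Channels were scaled between arrays by Aquantile for comparisons of channels and for lower bounds, which set the bright channel against the lowest signal above background. Each line is 1 sample, so no test across samples was run. The number of arrays, 4 per line, limits the precision. The 2-fold rule and limma were run on simulated arrays with changes well above the 2-fold limit. The background filter, the choice of probe, the scaling between arrays, the lower bounds and the comparison of the lines were not part of that.

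Named are all members, NFE2L2, KEAP1, BACH1, up to 12 further pathway genes by the size of their change, any set of 5 or fewer, and the 2 genes most like a changed member. The members, pathway list and markers were chosen with earlier results of these data known. Alternatives were normexp with an offset of 50 and loess, background-subtracted signals, arrays left out, single slides or directions, the mean over probes, other filters and fold limits, limma over arrays with an adjusted p under 0.05, and the other line's control. Software was limma 3.58.1 in R 4.3.3, and numpy 2.4.6, matplotlib 3.10.9 and pandas 2.3.3 in Python 3.11.15. The A2780DXL arrays were not analysed here.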

Additional observations from a re-analysis of the deposited data

Results flagged for a closer look

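For 3 members the log2 ratio of the brightest probe was above 0 on every A2780CBN array and below 0 on every A2780CBNDXL array. The difference, A2780CBNDXL minus A2780CBN, was -4.02 for HMOX1, -1.27 for ME1 and -0.87 for FTL. These differences were not tested, since each line is 1 sample. Both further FTL probes had ratios of both signs in A2780CBNDXL, and their ratios overlapped between the lines. Among the 17 groups of 4 arrays examined, none had an array that stood far from the other 3.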

How the results depend on the processing

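HMOX1 in A2780CBNDXL was counted as changed under all 18 alternatives, among them limma over the arrays, which made the same member calls in both lines. The count of 0 members in A2780CBN became 1 with background-subtracted signals and 1 with the other line's control, OSGIN1 in both, 2 with reverse arrays alone, HMOX1 and EPHX1, and 2 at a 1.5-fold limit, HMOX1 and OSGIN1. The count of 1 in A2780CBNDXL became 2 with forward arrays alone, with TXNRD1, 2 with reverse arrays alone, with ME1, and 3 at 1.5-fold. The 4 members that differed between the lines became 2 under normexp with loess, 2 when the resistant-line channels were compared directly, an alternative added after seeing the data, and 1 at 3-fold. For the control channels 0 became 2 with forward arrays alone and 1 with reverse arrays alone. Pathway genes changed in A2780CBN went from 6 to 13 at 1.5-fold and 3 at 3-fold, and in A2780CBNDXL from 12 to 24 at 1.5-fold. Leaving out each array or pair in turn gave 0 to 0 members in A2780CBN, 1 to 1 in A2780CBNDXL, 3 to 4 that differed, 0 to 0 for the control channels, and 6 to 6 and 12 to 13 pathway genes. Over all genes, the 2253 changes in A2780CBN became 604 under normexp with loess, 1121 at 3-fold and 4860 at 1.5-fold. The 2893 in A2780CBNDXL became 1172, 1467 and 5699. The causes were not tested. No paired analysis was possible because each line is 1 sample. OSGIN1, with signals of 16 to 125, was not above background on 1 array of A2780CBNDXL and had no call there.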
